A study of Mus musculus with 16 samples.

Results

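The 4 libraries described here hold poly(A) RNA of enriched splenic B cells from mice fed the NP diet, chosen by their diet label and by nothing measured in them. They are 4 of the 16 libraries of a study whose other mice ate diets named HAMS, HAMSA and HAMSB. All animals were NOD.LT, an inbred line of the NOD background, known for spontaneous immune destruction of the insulin-producing islet cells. They were culled at 15 weeks of age, after 5 weeks on the diet. The labels name the diet NP for each sample, title the samples GD and elsewhere list a diet named Gordons, and they give neither its make-up nor the sex of the mice. B cells were enriched from the spleen by magnetic negative selection, in which antibodies to other cells hold those cells back on a column, so the B cells stay untouched and cells that escape the antibodies stay with them. The libraries carry the numbers 1, 3, 4 and 5 in the labels and are named NP 1, NP 3, NP 4 and NP 5. The labels give 4 samples for the diet and also speak of triplicates, and they do not say which library came from which animal. The spread given as SD (n = 4) is therefore the spread between these libraries, part of which may be technical. Sets of 4 values are given in the order NP 1, NP 3, NP 4 and NP 5.

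A mature B cell carries a membrane antibody, the B cell receptor, whose heavy and light chains pair with the signalling chains Cd79a and Cd79b. Binding of antigen sets off the kinases Lyn and Syk, and the cell takes the antigen in and shows its peptides on MHC class II molecules to helper T cells. Most B cells of the mouse spleen are follicular cells, which recirculate and carry the low-affinity IgE receptor CD23 (Fcer2a), and a smaller set are marginal zone cells, which border the blood sinus and carry much complement receptor CD21 (Cr2). In NOD mice B cells are known as antigen-presenting cells that the disease needs.

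The counts assigned to genes summed to 31707731, 39161356, 35873569 and 42752976. These were 63.4% to 65.2% of all reads, while 14.7% to 17.4% mapped to several places and were not counted for any gene. Levels are given as CPM, the counts of a gene scaled to a library total of 1000000, and, where genes are set beside each other, as CPM per kilobase of exon (per kb). In all 4 libraries 12141 genes reached 1 CPM, and 9121 to 9253 genes a library reached 10 CPM. The 9 B cell markers used to check the label (Cd79a, Cd74, Ighm, Cr2, Fcer2a, Ms4a1, Cd79b, Pax5 and Cd22) were all present at 10 CPM or more and summed to 32937, 34188, 33044 and 37192 CPM. Defining markers of other cells summed to far less, which is given in detail with those cells. In RNA from a mixture, fewer cells of a type and less RNA per cell cannot be told apart. Protein-coding genes took 92.7% ± 0.206 of the counts (SD, n = 4). At this depth the 95% Wilson interval of such a share reached at most 0.00913 percentage points to either side, which covers counting error only.

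The most abundant RNAs encoded the B cell's own antigen receptor and its antigen-presenting machinery. Of the 25 genes with the highest mean CPM, 12 stood on lists of B cell or antigen presentation genes. Among the 100 highest, 24 did so, 13 encoded cytosolic ribosomal proteins, 6 lay on the mitochondrial genome and 3 were annotated pseudogenes. Cd74, the invariant chain that guides MHC class II through the cell, had 10738, 11094, 11236 and 13020.4 CPM and ranked first. Ighm, the constant region of IgM, followed with 11328, 11732, 9984 and 11652 CPM. The highest library was 1.21 times the lowest for Cd74, which was highest in NP 5, and 1.18 times for Ighm, which was lowest in NP 4.

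Per kb the order changed, since CPM favours long transcripts. Of the 25 genes Igkc, the kappa light chain constant region, then stood first at 9396 ± 1082 CPM per kb (SD, n = 4), followed by Cd74 at 6863 ± 608 and Ighm at 5925 ± 431. The mitochondrial gene mt-Co1, a subunit of cytochrome oxidase, had 4161 ± 1296 CPM per kb, and Eef1a1, the elongation factor that brings tRNA to the ribosome, had 2823 ± 196. Tmsb4x, thymosin beta 4, which binds monomeric actin, had 2007 CPM per kb, Actb, beta actin, 1479 and Eef2, the translocation factor of the ribosome, 998.7. Long genes of the top 25 fell back on this scale. Macf1, a giant linker of actin and microtubules, had 2111 CPM but 67.2 CPM per kb, and Arhgef1, a RhoA exchange factor of lymphocytes, had 1857 CPM and 240.2 CPM per kb. The RNA helicase gene Ddx5 (3879.5 ± 103 CPM), the tetraspanin gene Cd37 (1966 ± 202 CPM), the actin regulator gene Coro1a (1894 ± 119 CPM) and the chaperone gene Hsp90ab1 (2362 ± 158 CPM) were also among the 25. Serinc3, a multipass membrane protein, had 2439, 1578, 1544 and 2161 CPM, with NP 1 and NP 5 above both other libraries.

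**Figure D1:**
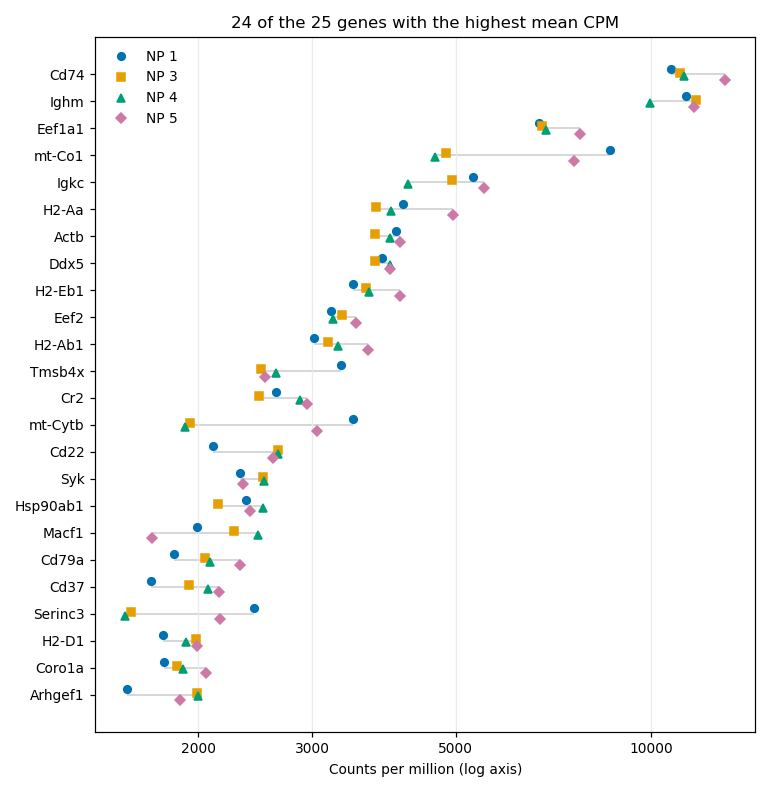
CPM on a log axis of 24 of the 25 genes with the highest mean CPM, with 1 point per NP library and a grey line over the range. The libraries lie close together for most genes, and mt-Co1, mt-Cytb and Serinc3 have NP 1 and NP 5 to the right of NP 3 and NP 4.

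The 10 most abundant genes of each library took 5.58% to 6.64% of its counts. The 100 most abundant took 18.3% ± 0.816 (SD, n = 4), and the 1000 most abundant 49.9% ± 0.545. The counts were thus spread over many genes, with MHC class II genes and Cd74 at 2.55, 2.60, 2.65 and 3.03% of all counts. Annotated immunoglobulin genes held 2.44, 2.41, 2.07 and 2.36%, and genes of cytosolic ribosomal proteins held 2.61, 2.53, 2.50 and 2.97%. Reads that fit several copies of a sequence are not in these values, so the shares of ribosomal proteins and immunoglobulins are those of their uniquely placed reads. Per kb Rpl3, a protein of the large ribosomal subunit, had 8.43 where Rpl4 of the same subunit had 891, and the level of such genes, which have processed copies elsewhere in the genome, is uncertain.

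All parts of the B cell receptor complex were present in every library, with 14 of 14 measured genes of the receptor and its coreceptors at 1 CPM or more in each. Together they summed to 31130.5, 31988, 29994 and 33988 CPM. Cd79a, which carries the signalling motifs of the receptor with Cd79b, had 1839.7, 2054, 2085 and 2318 CPM. Cd79b had 1691, 1814, 1770.4 and 2012 CPM, and per kb the partners stood at 1424 ± 134 and 1273 ± 95.4 (SD, n = 4). Both were highest in NP 5 and lowest in NP 1. On GRCm38, as annotated by GENCODE M21, Cd79a lies on chromosome 7 from 24897381 to 24902197 on the plus strand, Cd79b on chromosome 11 from 106311341 to 106314762 on the minus strand, Ighm on chromosome 12 from 113418558 to 113422730 on the minus strand and Igkc on chromosome 6 from 70726435 to 70726966 on the plus strand.

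A coreceptor complex lowers the threshold of the receptor. Of its genes, Cr2, which encodes CD21 and the longer CD35, had 2642, 2488, 2872 and 2946 CPM, and Cd81, a tetraspanin, had 241, 225, 225 and 286 CPM. A further identifier carries the symbol Cr2 in the table and is not included in these values. Per kb Cr2 stood at 337 ± 26.0 and Cd81 at 84.8 ± 10.004. Among inhibitory partners, Cd22, a sialic acid lectin, had 2111, 2657, 2659.7 and 2612 CPM, Cd72 had 534 ± 42.6 CPM, Fcgr2b, the inhibitory Fc receptor, 363 ± 36.0 CPM and Pirb, an inhibitory receptor for MHC class I, 139 CPM. Ms4a1, which encodes CD20, varied most among the receptor list's genes of over 1000 CPM, with 1521, 958, 1035 and 1413 CPM. Its values in NP 1 and NP 5 lay above those of NP 3 and NP 4. Cd5, which marks B-1a cells and T cells, had 5.20, 3.57, 4.24 and 4.70 CPM.

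Heavy chain constant genes were those of IgM first, with small amounts of switched isotypes that differed between libraries. Per kb, Ighm made up 93.5, 95.3, 96.3 and 96.8% of the sum over Ighm, Igha, Ighg1, Ighg2b, Ighg2c, Ighg3 and Ighe. Ighd, the constant region of IgD, is not among the genes analysed here. Igha, of the mucosal antibody IgA, had 506, 355, 268 and 234 CPM and a share of 2.05% ± 0.662 (SD, n = 4). Ighg3, of the mouse subclass IgG3, had 262, 68.1, 57.8 and 45.4 CPM, and NP 1 stood far above the rest. Ighg2b had 195, 198, 101 and 109 CPM, with NP 1 and NP 3 above NP 4 and NP 5. Ighg2c had 59.6, 80.5, 52.7 and 64.2 CPM, Ighg1 15.8, 24.5, 8.95 and 30.0 CPM and Ighe 3.47, 0.102, 0.418 and 1.43 CPM.

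Of the light chain constant genes measured, the kappa gene was the higher. Igkc had 5314, 4927, 4221 and 5533 CPM and Iglc2, a lambda constant region, 747, 779.6, 718 and 727 CPM. Of the per kb sum of these 2 genes Igkc held 88.5% ± 1.18. Iglc1 and Iglc3 were not analysed here, so this is no ratio of kappa to lambda as a whole.

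Variable segments gave a broad repertoire in each library. Of 103 annotated heavy chain segments 86 reached 1 CPM in all 4 libraries, and of 96 kappa segments 70 did. The heavy chain segments summed to 2157, 2239.7, 1914 and 1843 CPM and the kappa segments to 3014, 2913, 2645 and 2642. The sums were thus alike, while some single segments differed between libraries. The leading heavy chain segment was Ighv3-6 in NP 1 and NP 4 and Ighv1-26 in NP 3 and NP 5, with 6.54%, 4.81%, 6.70% and 9.91% of the heavy chain segment sum in NP 1, NP 4, NP 3 and NP 5. The leading kappa segment was Igkv1-110 in NP 1, NP 3 and NP 4 and Igkv8-24 in NP 5.

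Among heavy chain segments of a mean of 1 CPM or more, 17 of 88 (19.3%) had a highest library at 2 times the lowest or more. For kappa segments it was 16 of 75 (21.3%), and over all genes of that level 7.42%. The segments named next were picked after their values were seen. Ighv2-7 had 37.8, 6.69, 4.79 and 2.97 CPM and Igkv8-16 71.0, 13.97, 20.7 and 14.6 CPM, both highest in NP 1, the library with most Ighg3. Igkv8-24 had 109, 88.1, 70.1 and 249 CPM, highest in NP 5. Ighv4-1 with 34.0, 90.5, 32.0 and 21.5 CPM, Ighv1-85 with 11.6, 37.4, 8.75 and 11.6 CPM and Ighv1-78 with 12.1, 45.8, 22.6 and 12.6 CPM were highest in NP 3.

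The MHC class II pathway was present from its master regulator to its peptide editors. Of 13 listed genes 12 had 1 CPM or more in all libraries, and the list summed to 25523, 26022, 26504 and 30312 CPM, highest in NP 5. NP 5 was also the highest library for 10 of the 13 genes, where 19.5% of all genes with 10 counts or more were highest in it. The classical chains came first. H2-Aa and H2-Ab1, which encode the alpha and beta chains of I-A, the only classical class II molecule that NOD mice are known to make, had 4149, 3764, 3965 and 4958 CPM and 3023, 3174, 3285 and 3665 CPM. H2-Eb1, the beta chain of I-E, had 3475, 3639.6, 3667 and 4103 CPM, while H2-Ea-ps, the partner gene annotated as a pseudogene in the reference genome, had 0.284, 0.332, 0.139 and 0.234 CPM. Per kb H2-Eb1 stood at 1914 ± 138, above 1108 ± 138 for H2-Aa and 1279.9 ± 107 for H2-Ab1, so the beta chain RNA of I-E was plentiful while its alpha partner was near 0.

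Peptide loading of class II needs H2-M, and H2-O restrains it in B cells. The H2-M beta chain gene H2-DMb2 had 837, 944, 1001 and 1071 CPM and its neighbour H2-DMb1 232 ± 31.2 CPM, with per kb levels of 551 ± 56.7 and 138 ± 18.6. These 2 genes are near copies of each other, and how reads were shared between them is uncertain. H2-DMa had 320.3 ± 31.7 CPM. H2-Ob, the beta chain of H2-O, had 1175, 1163, 1096 and 1223 CPM, and H2-Oa 226 ± 22.3 CPM. Ciita, the transactivator that switches the class II genes on, had 772, 833, 825 and 722 CPM, and Ctss, the cathepsin that trims the invariant chain, 518, 498, 495 and 527 CPM. H2-Eb2 had 147 ± 8.13 CPM.

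Class II promoters are known to share a module of S, X and Y boxes, on which RFX, CREB and NF-Y proteins gather and recruit Ciita. The Y box holds an inverted CCAAT sequence. A search for TGATTGG on either strand of the window from 250 bases before to 50 bases after the start site found it in 7 of the 9 class II pathway genes examined, of 13 on the list, whose first RefSeq promoter was read on GRCm38.p6. Among all 32851 such windows 7.82% held it. The stretches of the 7 genes around the motif are shown because they carry the sequence that these abundant genes share. They are the reference strain's sequence, not that of NOD mice, and a match describes letters and not binding. The motif is in capitals, each stretch runs 5′ to 3′ toward the gene, and the 7 motifs begin 45 to 102 bases before the start site.
H2-Oa: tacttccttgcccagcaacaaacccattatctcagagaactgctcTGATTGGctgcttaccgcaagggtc
H2-DMb2: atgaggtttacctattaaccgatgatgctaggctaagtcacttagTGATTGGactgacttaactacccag
H2-DMb1: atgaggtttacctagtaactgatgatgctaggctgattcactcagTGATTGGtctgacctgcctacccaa
H2-Ob: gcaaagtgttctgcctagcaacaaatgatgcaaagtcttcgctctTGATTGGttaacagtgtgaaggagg
H2-Aa: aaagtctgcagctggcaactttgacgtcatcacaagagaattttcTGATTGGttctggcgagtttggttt
H2-Eb1: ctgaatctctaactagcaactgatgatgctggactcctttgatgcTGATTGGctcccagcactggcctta
H2-Eb2: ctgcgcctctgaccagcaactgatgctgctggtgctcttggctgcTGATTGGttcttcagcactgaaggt
The stretches came from chromosome 17. Their positions on GRCm38.p6 are H2-Oa chr17:34092289-34092358 (plus strand), H2-DMb2 chr17:34145112-34145181 (plus strand), H2-DMb1 chr17:34153083-34153152 (plus strand), H2-Ob chr17:34238801-34238870 (plus strand), H2-Aa chr17:34287849-34287918 (minus strand), H2-Eb1 chr17:34305761-34305830 (plus strand) and H2-Eb2 chr17:34325528-34325597 (plus strand). The windows of Ctss and H2-DMa did not hold these 7 letters. Cd74 was left out by choice, and H2-Ab1, Ciita and H2-Ea-ps were not analysed here for the motif.

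MHC class I genes were present as in nearly all cells, with 12 of 12 listed genes at 1 CPM or more in each library and a sum of 5476, 5869.5, 5736 and 6088 CPM. NP 1 was the lowest library for 10 of the 12, where 31.7% of all genes with 10 counts or more were lowest in it. H2-D1, a classical heavy chain, had 1764, 1986, 1914 and 1991 CPM, and H2-K1 921 ± 85.8 CPM. B2m, beta-2 microglobulin, had 1141, 1025, 1035 and 1092 CPM and per kb stood at 1248 ± 62.7. Tap1 and Tap2, the peptide transporter, had 320.1 ± 23.1 and 224 ± 17.9 CPM, and their partner Tapbp, tapasin, 366 ± 19.1. H2 genes are near copies of each other and differ between strains, so their single levels are uncertain.

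The transcription factors that make and keep B cells were present at moderate levels. Of 24 listed factors 21 had 1 CPM or more in all libraries, and the sum was steady at 7867, 7844, 7873 and 7567 CPM. Pax5, the guardian of B cell identity, had 290.2, 324, 342 and 312 CPM, and Ebf1, which opens B cell genes early in development, 217 CPM. Ebf2 had no count in any library, and Ebf3 and Ebf4 averaged 0.0158 and 0.0128 CPM. Ets1, which restrains plasma cell formation, had 1247, 1252, 1244 and 1198 CPM, Spib 926, 881, 904 and 989 CPM and Pou2af1, the coactivator of octamer factors, 524, 460.4, 497 and 617 CPM. Irf8 (617 ± 17.5 CPM), Ikzf1 (594 ± 24.2 CPM), Ikzf3 (629 ± 68.8 CPM) and Mef2c (402 ± 22.8 CPM) followed. Per kb the leaders were Spib at 322 ± 16.2, Pou2af1 at 206 ± 26.2 and Ets1 at 146 ± 2.95, with Pax5 at 35.8 ± 2.43. Prdm1, the factor that drives plasma cells, had 13.6, 13.5, 12.9 and 11.6 CPM. Ets1 and Irf8 varied least among the 8 highest factors, with coefficients of variation of 2.02% and 2.84%.

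Downstream of the receptor, all 21 signalling genes on the list had 10 CPM or more. Syk, the kinase that docks on Cd79a and Cd79b, had 2322, 2516, 2533 and 2349.8 CPM, all within 1.09-fold. Ptprc, the phosphatase CD45, had 1832, 1701, 1763 and 1665 CPM and Ptpn6, the phosphatase SHP-1 that answers to inhibitory receptors, 1134, 1196, 1286 and 1149.7 CPM. Blk, a B cell kinase of the Src family, had 616, 751, 743 and 784 CPM and Lyn 603, 562, 531 and 548 CPM. Inpp5d, the lipid phosphatase SHIP1, had 717 ± 56.9 CPM. The adaptor genes Bank1, Dok3 and Blnk had 528 ± 53.0, 511 ± 54.1 and 493 ± 26.3 CPM. The sum over the list was 12364, 12768, 13001 and 12246 CPM, with an SD of 2.79% of the mean.

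All 8 measured follicular markers had 10 CPM or more. Fcer2a, which encodes CD23, had 777, 1067, 1059.7 and 906 CPM, with NP 3 and NP 4 above NP 5 and NP 1 lowest. Cxcr5, the receptor that draws B cells to follicles, had 624, 618, 682 and 695 CPM, Cd38 344, 339, 332 and 351 CPM and Klf2, a factor of quiescence and recirculation, 283, 290.0, 254 and 197 CPM. Cd55 and Ccr7 had 242 ± 15.0 and 146 ± 11.7 CPM. Marginal zone markers were present as well, with 9 of 12 at a mean of 10 CPM or more. Beside Cr2, which both kinds of cell express, Notch2, the receptor that marginal zone cells need, had 633, 662, 646 and 548 CPM and Dtx1, a target of Notch signalling, 495, 573, 581 and 619.7 CPM. S1pr1, S1pr3, Mzb1 and Cd1d1 had 439.9 ± 36.8, 150.4 ± 13.8, 345 ± 20.4 and 183 ± 19.6 CPM. Cd9 had 74.7, 73.8, 75.2 and 46.2 CPM and was lowest in NP 5, as the platelet markers were, and platelets are known to carry CD9. The part of platelets in this value was not tested.

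Genes of the recombinase and of B cell precursors were at low levels. Rag1, of the V(D)J recombinase, had 0.315, 0.102, 0.0558 and 0.0702 CPM, and Dntt, Vpreb1 and Igll1 of B cell precursors averaged 0.130, 0.370 and 0.0175 CPM. Cd93, which marks transitional B cells and is also found on myeloid and endothelial cells, had 20.6, 14.6, 9.48 and 5.80 CPM, in the same order of libraries as the macrophage genes Csf1r and Vcam1. The part of other cells in its value was not tested. Per kb, Fcer2a and Cxcr5 stood at 308 and 197, against 1.89 for Cd93 and 0.0206 for Rag1. Vpreb3 had 50.4, 46.5, 51.3 and 71.5 CPM and Cd24a 454 ± 32.8 CPM. For B-1 cells, Plac8 (482 ± 38.8 CPM) and Fcrl5 (146 ± 12.2 CPM), which other B cells express too, led the list, while Bhlhe41, a factor of B-1a cells, had 15.5, 14.02, 14.5 and 10.7 CPM and Zbtb32 2.14 CPM. Age-associated B cells are known by T-bet and CD11c. Tbx21, which encodes T-bet, had 3.56, 2.86, 1.90 and 2.60 CPM and Itgax, which encodes CD11c and is also a dendritic cell gene, 40.1, 36.6, 28.7 and 18.5 CPM. Of germinal centre genes, Rgs13 had 5.17, 2.50, 2.15 and 4.12 CPM, S1pr2 6.88, 6.87, 5.66 and 8.56 CPM and Fas 5.11, 5.13, 4.57 and 5.15 CPM. Per kb Rgs13 stood at 2.11. It was higher in NP 1 and NP 5 than in NP 3 and NP 4. Bcl6, the germinal centre repressor that resting B cells transcribe too, had 119.5, 136, 124 and 103 CPM.

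Receptors for chemokines, cytokines and survival factors were nearly all present. Of 25 listed genes 24 had 1 CPM or more in all libraries, and the sum was 6421, 6500.1, 6611 and 6894 CPM. Tnfrsf13c, the BAFF receptor on which mature B cells depend, had 374, 336, 348 and 401 CPM and Tnfrsf13b, the receptor TACI, 358, 331, 339 and 372 CPM. Tnfrsf17, the receptor BCMA of plasma cells, had 0.631, 0.970, 0.753 and 0.725 CPM. Ltb, lymphotoxin beta, had 528 ± 69.5 CPM, and the receptors Il4ra and Il21r for helper T cell cytokines 390.1 ± 22.2 and 388 ± 30.0 CPM. Itgal and Itga4, integrin chains of LFA-1 and VLA-4, had 362 ± 16.9 and 352 ± 47.8 CPM. Of costimulatory genes, Icosl had 501, 579, 578 and 557 CPM and Cd83 269, 199.8, 219.6 and 223 CPM, whereas Cd86, Cd80 and Cd69, which rise upon activation, had 59.8 ± 8.41, 4.12 ± 0.894 and 35.0 ± 6.31 CPM. Icosl was highest in NP 3 and NP 4, and Cd86 and Cd69 were highest in NP 1.

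Among the Toll-like receptors proper, Tlr1 and the endosomal nucleic acid receptors Tlr9 and Tlr7 had the highest levels per kb. Tlr1 had 279, 253, 271 and 306 CPM, Tlr9, which senses unmethylated DNA, 157, 159, 182 and 180.3 CPM and Tlr7, which senses single-stranded RNA, 89.2, 49.2, 53.9 and 74.5 CPM. Tlr7 was highest in NP 1 and NP 5. Unc93b1, the chaperone that carries endosomal receptors to their compartment, had 1018, 1200.0, 1222 and 1280.3 CPM. Cd180 and its partner Ly86 had 328 ± 14.6 and 273 ± 19.6 CPM, and the shared adaptor Myd88 58.9 ± 1.95 CPM. Per kb Tlr1 stood at 82.9 ± 6.56, Tlr9 at 48.7 ± 3.89 and Tlr7 at 16.3 ± 4.56.

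B cells may use 1 member of a gene family more than its others, and 65 families with 253 listed members were examined for this. A member's share is its part of the family's summed CPM per kb. The leading member held at least 50% of the sum in 55 families and at least 90% in 17, with a median share of 75.3%. In a family of 2 members the leader holds at least 50% by construction, so the count of 55 includes families that could not fall short. The same member led in all 4 libraries in 63 of 65 families, and the median SD of its share was 1.20 percentage points. Of the members with a length, 42 of 250 averaged under 1 CPM, so most listed members were not silent. Of all 39179 identifiers, 12676 averaged 1 CPM or more. Exon length was the union of annotated exons, which is longer than any single transcript, and where another length changed the leader this is given with the family.

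In receptor signalling the B cell members led. Syk held 99.2% ± 0.113 of the Syk and Zap70 sum (SD, n = 4), Btk 73.8% ± 0.885 of the Tec family and Plcg2 88.5% ± 0.458 of the phospholipase C gamma pair. The T cell kinase Zap70 stood low, at 0.823% of its pair, and Bmx averaged 0.0763 CPM. Tec was second in its family with 25.4% ± 1.22. Src kinases were shared out more widely, with Blk at 45.7% ± 2.65, Lyn at 23.6% ± 2.46 and Lck at 3.81% ± 0.321. Pik3cd, the PI3-kinase subunit of leukocytes, held 67.2% ± 3.83, Prkcd 51.7% ± 2.03 and Prkcb 31.2% ± 1.60 of the protein kinases C, Vav1 64.4% ± 0.169 of the Vav factors and Itpr3 72.1% ± 0.804 of the IP3 receptors. Of the calcium sensors Stim2 held 57.9% ± 0.976, but Stim1 led when CPM was used without length or with the longest transcript, and of the Orai channels Orai3 held 58.0% ± 2.64 and Orai2 led without length. Rac2, the Rac GTPase of blood cells, held 87.8% ± 1.69 of its family, and Coro1a 84.6% ± 0.903 of the coronins.

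Families of surface receptors were examined in the same way. Fcgr2b held 93.1% ± 3.23 of the Fc gamma receptors, and the activating receptor genes Fcgr3, Fcgr4 and Fcgr1 averaged 4.83, 1.55 and 1.34 CPM. Cd22 held 63.8% ± 0.403 and Siglecg 35.5% ± 0.565 of the Siglecs, with every other member at 0.341% or less. Tnfrsf13c and Tnfrsf13b held 58.8% ± 0.656 and 40.8% ± 0.599 of the receptors for BAFF and APRIL. S1pr1 held 66.4% ± 2.22, Ms4a1 64.7% ± 2.60 and Itgal 79.8% ± 4.83 of their families.

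Among transcription factors, Ebf1 held 99.98% of its family and Bcl11a 99.5% ± 0.469 against the T cell factor Bcl11b. Spib held 88.2% ± 1.17 and Spi1, which encodes PU.1, 9.98% ± 1.11. Ikzf1 and Ikzf3 shared their family at 57.0% ± 3.01 and 39.7% ± 3.03, while Ikzf2 and Ikzf4 averaged 0.236 and 0.378 CPM. Ikzf3 led without length and with the longest transcript as length. Tcf3 held 82.4% ± 1.96 of the E proteins and Id3 82.9% ± 2.87 of their Id inhibitors, with Id1 at 0.179 CPM and Id4 without a count. The share of Tcf3 depended on the length used. It was 47.2% without length and 69.5% with the longest transcript, and Tcf3 led in both cases. Runx3 held 80.1% ± 1.94, Pou2f2 67.1% ± 3.33, Foxo1 52.5% ± 2.93 and Bach2 63.2% ± 6.05. Irf5, Irf8, Irf3 and Irf4 shared the interferon regulatory factors at 27.3%, 21.1%, 15.998% and 11.4%, and Irf8 led without length and by the longest transcript. Nfkb2 held 42.2% ± 1.72 of the NF-kappaB subunits, Stat6 33.8% ± 1.20 of the Stat factors and Nfatc1 46.02% ± 2.05 of the NFAT factors. Mef2d held 65.8% ± 2.75, but Mef2c led without length. Foxp4 and Foxp1 could not be ordered, at 50.8% ± 3.49 and 49.1% ± 3.44, with each leading in 2 libraries and Foxp1 leading without length and by the longest transcript. Mef2b, Pou2f3, Nfatc4 and Foxp2 had no count in any library, which at 3 counts allows at most 0.0946 CPM in a single library.

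Metabolic and housekeeping families ranged from a single gene with counts to shared use. Ldha held 99.6% ± 0.183 of the lactate dehydrogenases and Ldhb averaged 0.339 CPM. Pkm held 99.9% ± 0.0717 against the liver and red cell form Pklr, Aldoa 98.8% ± 0.0809, Cox4i1 99.99% and Cox6a1 99.9% ± 0.0451. Cox8a was the only COX8 gene with a count, and Eef1a1 the only elongation factor 1A gene with one. Hk1 held 76.1% ± 4.08 of the hexokinases. Hdac3 held 36.5% ± 1.76 of the class I histone deacetylases and Hdac1 32.2% ± 1.41, but Hdac1 led by the longest transcript. Slc2a3 and Slc2a1, the glucose transporters GLUT3 and GLUT1, held 43.6% ± 3.54 and 35.7% ± 3.76, with Slc2a3 first in 3 of 4 libraries. Mcl1 held 88.6% ± 0.707 of the anti-apoptotic genes with a length and Bcl2 5.78% ± 0.348. Cdk4 held 99.0% ± 0.256 against Cdk6, and Ccnd3 72.2% ± 5.69 of the D-type cyclins. Eif4a2 held 64.0% ± 3.64, while Eif4a1, which has many processed copies, held 14.01% ± 1.36 and is uncertain. The same holds for Eno1b, Eno3 and Eno1, at 46.3%, 38.1% and 15.0%, and for Rps27l and Rps27, at 88.7% and 11.3%.

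The immunoproteasome, whose 3 catalytic subunits replace those of the constitutive proteasome in immune cells, led at 2 of 3 positions. Psmb8 held 79.0% ± 0.669 against Psmb5, and Psmb10 78.5% ± 2.10 against Psmb7. At the beta1 position Psmb9 held 47.5% ± 0.982 and Psmb6 52.5% ± 0.982, and Psmb9 led when CPM was used without length.

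**Figure D2:**
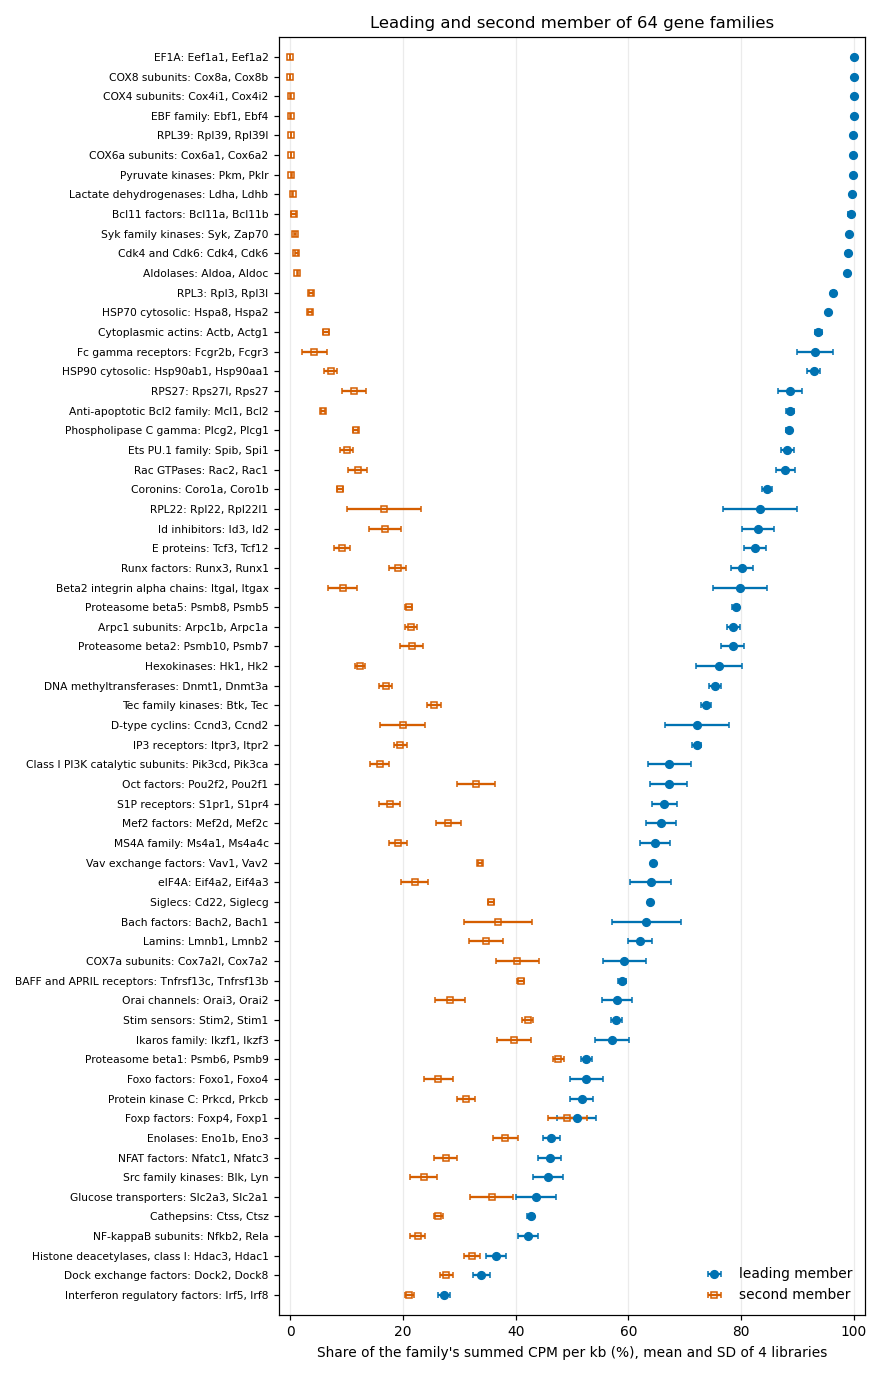
Share of each family's summed CPM per kb (%) held by its leading member (filled blue circles) and its second member (open orange squares) in 64 of the 65 gene families, as mean with the SD of 4 NP libraries as bars. Families are ordered by the leader's share, from Eef1a1 and Cox8a at the top, which alone had counts, to the interferon regulatory factors at the bottom, where Irf5 held 27.3%.

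RNA of other cells was measurable in all 4 libraries. The summed T cell, natural killer, neutrophil, macrophage and mast cell lists were highest in NP 1, and the red cell list was highest in NP 3. The bulk of the T cell list came from Cd2 and Lck, which had 99.8, 113, 115 and 107 CPM and 68.3, 63.6, 65.01 and 63.6 CPM, flat over the libraries. The genes of the T cell receptor complex did not follow them. Cd3e had 3.34, 0.587, 0.502 and 0.491 CPM, Cd3d averaged 1.004 CPM, Cd3g 1.41 CPM and Trac 0.945 CPM. Cd4, which macrophages and dendritic cells may also carry, had 9.75, 6.33, 4.21 and 2.95 CPM and Cd8a, also on some dendritic cells, 15.1, 9.17, 8.36 and 6.90 CPM. The 6 defining T cell markers summed to 36.0, 18.7, 14.3 and 12.1 CPM, none was at 0 in all libraries, and NP 1 was the highest library for 24 of the 25 listed T cell genes, where 32.5% of all genes with 10 counts or more were highest in it. Natural killer cell genes were lower, with Ncr1, Klrb1c, Nkg7 and Gzma summing to 4.32, 1.10, 0.836 and 0.795 CPM. Ccl5 had 24.7, 17.6, 16.6 and 11.9 CPM, and Prf1, perforin, 10.7, 9.78, 11.1 and 11.98 CPM.

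Neutrophil genes were few and mainly in NP 1. S100a9 and S100a8, calcium-binding proteins that neutrophils hold in bulk, had 24.3, 4.60, 2.79 and 3.13 CPM and 14.7, 1.61, 1.17 and 2.34 CPM. The whole list of 16 genes summed to 84.7, 23.2, 14.4 and 15.8 CPM, and NP 1 was highest for all 14 members with 10 counts or more, against 32.5% of all genes at that minimum. Macrophage genes had a larger sum. Lyz2, lysozyme, had 254, 195, 156 and 93.3 CPM, Vcam1, which splenic red pulp macrophages carry, 68.2, 43.6, 33.0 and 24.5 CPM, Csf1r 52.8, 37.5, 28.2 and 17.6 CPM, Adgre1, which encodes F4/80, 26.1, 20.4, 16.9 and 12.96 CPM and C1qa 19.3, 18.6, 20.6 and 11.9 CPM. The list of 25 summed to 706, 551, 450.2 and 303 CPM, with NP 1 highest for 20 members and NP 5 lowest for 21. Over all genes with 10 counts or more these shares were 32.5% and 31.5%. Ly6c2, of inflammatory monocytes, averaged 0.411 CPM. Spic, a factor of red pulp macrophages that B cells also express, had 29.1, 24.8, 24.6 and 24.9 CPM, highest in NP 1 and nearly equal in the others.

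Dendritic cell markers followed the macrophage genes where B cells do not share them. Itgax, Flt3, Xcr1 and Siglech summed to 88.7, 73.2, 53.6 and 40.7 CPM, and Siglech, of plasmacytoid dendritic cells, had 11.2, 7.12, 2.17 and 2.67 CPM. Ly6d and Tcf4, which B cells express, made up most of the list sum, with 184, 198, 248 and 262 and 188, 195, 208 and 192 CPM. Mast cell and basophil genes were near 0. Fcer1a had no count in any library, Cpa3, Mcpt8 and Prss34 had counts in NP 1 alone, and Kit had 15.7, 11.3, 9.48 and 6.69 CPM.

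Red cell genes differed most between libraries, and here NP 3 was highest. The globin genes Hbb-bs and Hba-a1 had 139, 562, 67.6 and 26.5 CPM and 108, 524, 63.9 and 26.5 CPM. Alas2, the first enzyme of haem synthesis in red cells, had 10.1, 53.2, 6.33 and 1.57 CPM and Slc4a1, the band 3 anion exchanger, 22.6, 135, 20.3 and 4.79 CPM. NP 3 lay above all others and NP 5 below all others for each of these 4 genes. NP 3 was highest for 23 and NP 5 lowest for 23 of the 24 erythroid genes with 10 counts or more. Of all such genes 23.6% were highest in NP 3 and 31.5% lowest in NP 5. The list summed to 508, 1823, 313 and 169 CPM. Klf1, of red cell precursors, averaged 2.88 CPM. Hba-a2, whose sequence is close to that of Hba-a1, averaged 0.0398 CPM, so the level of each alpha globin gene is uncertain. NP 3 was also highest for 18 of 24 cell cycle genes, among them Mki67 with 53.7, 90.1, 48.8 and 39.3 CPM, beside the same 23.6% of all genes. The part of red cell precursors in these values was not tested.

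Platelet genes were alike in NP 1, NP 3 and NP 4 and lower in NP 5. Pf4, platelet factor 4, had 25.8, 21.6, 20.5 and 7.70 CPM, Ppbp 45.9, 34.1, 31.5 and 12.02 CPM, Itga2b, which encodes CD41, 74.2, 66.6, 74.7 and 27.1 CPM and Gp9 15.5, 12.54, 14.1 and 6.10 CPM. NP 5 was lowest for all 16 listed genes, where 31.5% of all genes with 10 counts or more were lowest in it. Itgb3, the beta chain that pairs with CD41, stayed nearly flat with 237, 204, 229.6 and 191 CPM, so its ratio to Itga2b was 3.20, 3.06, 3.07 and 7.07. Pecam1, an adhesion molecule of endothelium that B cells and platelets also carry, had 324, 353, 367 and 331 CPM and made up nearly all of the stroma and endothelium list. Cdh5, of endothelium, averaged 2.14 CPM, and the collagen genes Col1a1 and Col3a1 0.219 and 0.375 CPM.

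Plasma cell genes were present in all libraries, and several of them are shared with resting B cells. Jchain, which joins antibodies into polymers, had 716, 649, 450.3 and 429 CPM, Xbp1 191, 187, 167 and 161 CPM and Sdc1, which encodes CD138, 15.2 ± 3.02 CPM. Mzb1, Txndc5 and Irf4, which B cells also express, had 345 ± 20.4, 281 ± 9.52 and 233 ± 13.8 CPM. Jchain and Igha were higher in NP 1 and NP 3 than in NP 4 and NP 5, as was Ighg2b.

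Of sex-linked genes, Xist, the RNA that silences an X chromosome in females, had 1037, 807, 868 and 783 CPM. Ddx3y, Eif2s3y, Kdm5d and Uty of the Y chromosome had no count in any library, which at 3 counts allows at most 0.0946 CPM in a single library.

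**Figure D3:**
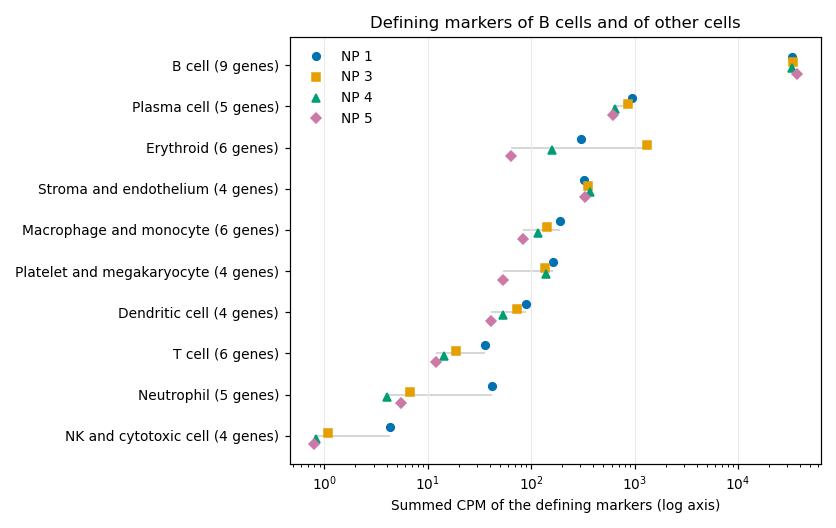
Summed CPM on a log axis of the defining markers of B cells and of other cells in each NP library, with the number of genes in brackets and a grey line over the range. The B cell sums lie together between 32937 and 37192 CPM, NP 3 stands to the right for erythroid markers, NP 1 stands to the right for neutrophil and natural killer markers, and NP 5 to the left for platelet markers. Mast cell and basophil markers, with sums of 0 in 3 libraries, are left out.

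The libraries agreed closely for most genes. The biological coefficient of variation, which is the spread between libraries beyond counting noise as edgeR estimates it over 13755 genes, was 15.0%. Genes of 10 to 100 CPM had a median coefficient of variation of 7.83%, of which counting alone gives 2.75%. For genes of 1 to 10 CPM it was 17.6%, with 8.88% from counting. Of 12676 genes with a mean of 1 CPM or more, 940 (7.42%) had a highest library at 2 times the lowest or more. NP 1 was the highest library for 576 of them and NP 5 the lowest for 620. This number was 536 without NP 1 and 507 without NP 5.

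NP 3 and NP 4 were the closest pair, with 149 genes (1.18%) at least 2-fold apart. NP 1 and NP 5 were the most distant, with 594 (4.69%). Even NP 3 and NP 4 differed by more than counting noise, with a median squared difference 3.64 times what counting gives, against 8.56 to 14.9 in the other pairs, so no pair of libraries agreed within counting noise. Whether they came from separate animals cannot be told from this. In a principal component analysis of log2 CPM over 9213 genes of 10 CPM or more, the first component held 46.6% of the variance and set NP 1 apart from the others. The second held 42.8% and set NP 5 apart, with NP 3 at its other end.

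The most variable genes of 10 CPM or more fell into a few sets. Of the 20 ranked genes with the largest variation beyond counting noise, 10 are known in red cells, namely Alas2, Slc4a1, Hba-a1, Tmcc2, Hbb-bs, Hbb-bt, Sptb, Aqp1, Ank1 and Car2, and NP 3 was the highest library for each. Lars2, which encodes the mitochondrial leucyl-tRNA synthetase, had 187, 112, 150.3 and 1289.6 CPM, highest in NP 5. It lies on chromosome 9 from 123366927 to 123462666 on the plus strand (GRCm38). Whether the reads counted for Lars2 came from its mRNA was not tested. The ranking passed over short RNAs known by a number alone. Several of them were highest in the same library and were singled out after their values were seen. The annotated miRNA mmu-mir-6236 had 24.6, 16.5, 28.4 and 200.2 CPM and Gm24187 3.94, 4.29, 5.41 and 47.9 CPM. Gm24270 had 7.22, 8.73, 13.8 and 57.8 CPM and the antisense RNA Gm15564 7.32, 1.99, 2.70 and 38.9 CPM. By their variation Gm24187 and Gm15564 would stand above Alas2, which ranked first, and mmu-mir-6236 between Slc4a1 and Lars2.

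A further set was highest in NP 4 and lowest in NP 1. Fn1, fibronectin, had 36.6, 78.7, 123 and 47.1 CPM, C4b, a complement component, 10.4, 23.7, 44.0 and 20.5 CPM, Prg4, lubricin, 6.24, 13.8, 27.0 and 15.8 CPM and Alox15, a lipoxygenase, 4.23, 11.2, 21.1 and 10.4 CPM. Prg4, Fn1 and Alox15 are known as genes of peritoneal macrophages in mice. The macrophage markers Csf1r and Vcam1 were highest in NP 1, while the marker C1qa was highest in NP 4. Of the 25 listed macrophage genes, 20 were highest in NP 1, 3 in NP 3 and 2 in NP 4. Which cells gave the RNA of this set was not tested. F13a1, a coagulation factor chain of monocytes and platelets, had 26.0, 19.6, 12.3 and 6.34 CPM. Fkbp5, a co-chaperone that glucocorticoids induce, had 263, 136, 89.9 and 121 CPM, highest in NP 1. Zfp758, a zinc finger gene, had 33.8, 12.46, 12.3 and 22.9 CPM.

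At the other end, Stat6, the transcription factor of interleukin 4 signalling, had 392, 389, 388 and 388 CPM, a coefficient of variation of 0.442% and no spread beyond counting noise. Trim27 had 100.2, 98.8, 99.8 and 99.6 CPM and Atp5j, a subunit of ATP synthase, 74.9, 75.5, 74.8 and 74.6 CPM. Mettl16, Qtrtd1, Hlcs, Siae, Timmdc1, Sdccag8 and Dolpp1, with means of 20.3 to 43.9 CPM, complete the 10 genes with the lowest coefficients of variation.

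**Figure D4:**
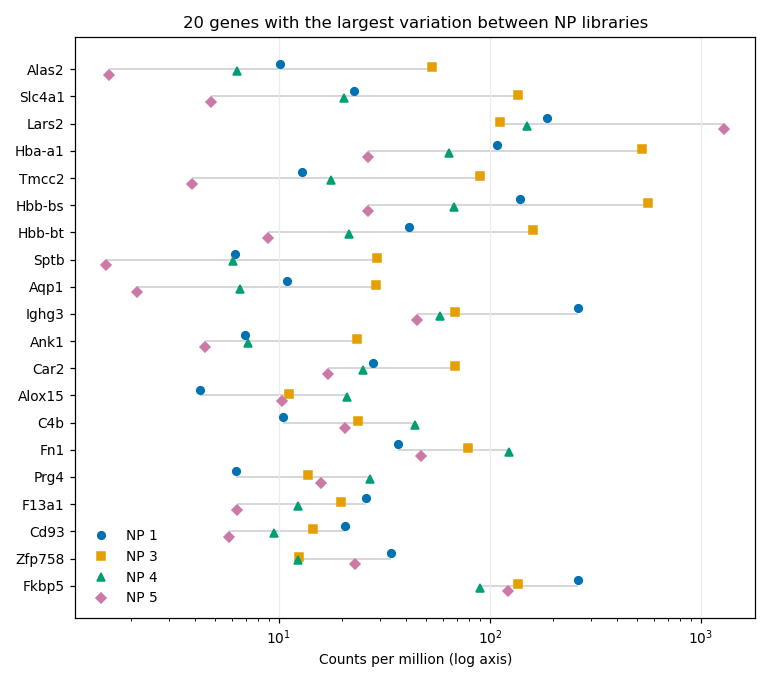
CPM on a log axis in each NP library of the 20 ranked genes with the largest variation beyond counting noise, among genes of 10 CPM or more and without numbered RNAs, pseudogenes and variable segments, with a grey line over the range. NP 3 is farthest to the right for the 10 red cell genes, NP 5 for Lars2, NP 1 for Ighg3, and NP 4 for Alox15, C4b, Fn1 and Prg4.

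Part of the spread followed properties of the genes. A gene's deviation in a library is its log2 CPM (with 0.5 added) minus its mean over the 4 libraries. When genes were split into 5 groups of equal size by GC content, the lowest group in NP 1 had a median deviation of 0.15 and the highest group -0.12. Across 9157 genes the Spearman correlation of GC content with the deviation was -0.608 in NP 1, 0.423 in NP 3, 0.349 in NP 4 and 0.167 in NP 5. These are descriptions across genes, which share their libraries and are not independent. In NP 5 the deviation fell with exon length, with a median of 0.04 for the shortest 20% of genes and -0.07 for the longest. The part of GC content and length in the genes that stood out in NP 1 or NP 5 was not tested.

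Genes of the mitochondrial genome were high in NP 1 and NP 5. The 13 protein genes summed to 19126, 10681, 10229.6 and 16285 CPM, of which mt-Co1 had 8635, 4822, 4647 and 7613 CPM and mt-Cytb 3465, 1946, 1907 and 3047 CPM. All 6 mitochondrial genes of 10 CPM or more lay above their mean in NP 1 and in NP 5 and below it in NP 3 and NP 4. Of all 9213 genes of that level, 4128 lay above their mean in NP 1, 5300 in NP 3, 5165 in NP 4 and 4394 in NP 5. The median GC content of the 6 mitochondrial genes was 37.4%, against 49.4% over all genes of that level. mt-Nd6, the protein gene on the other strand, had 5.30, 7.99, 8.89 and 8.91 CPM and did not share the pattern. mt-Co2, mt-Co3 and mt-Atp6 averaged 5.34, 5.70 and 3.52 CPM, far below the other mitochondrial genes, and since reads that fit several places were not counted their levels are uncertain. Cytosolic ribosomal protein genes were highest in NP 5 in 49 of 76 cases, where 19.5% of all genes with 10 counts or more were highest in it.

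**Figure D5:**
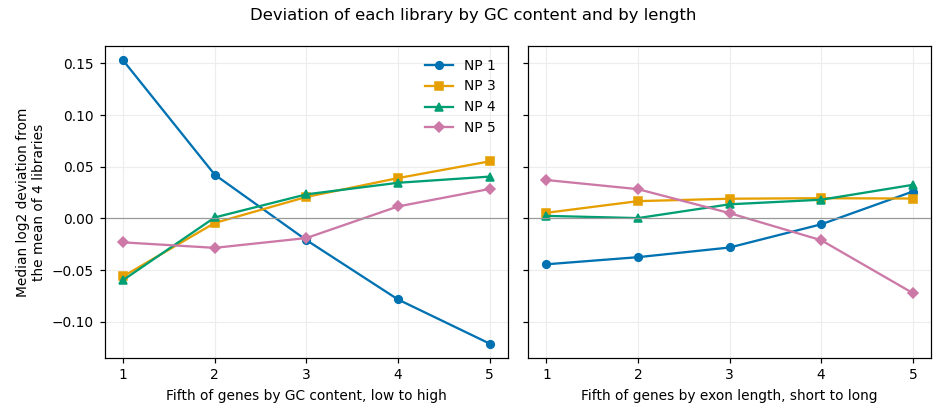
Median log2 deviation of genes from their mean over the 4 NP libraries, in 5 equal groups of GC content of the longest transcript (left) and of exon length (right), among genes of 10 CPM or more. The line of NP 1 falls from 0.15 to -0.12 over the GC groups, and the line of NP 5 ends at -0.07 for the longest genes.

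Genes that respond to stress, handling and stimulation were also examined. The constitutive chaperones led the heat shock list, with Hsp90ab1 at 2369, 2146, 2524 and 2409 CPM, Hsp90b1 of the endoplasmic reticulum at 896 ± 75.05 and Hspa8 at 239.7 ± 26.0. The inducible genes Hspa1a and Hspa1b, near copies of each other whose counts are therefore uncertain, averaged 0.675 and 1.18 CPM. NP 1 was the highest library for 15 of 20 listed heat shock genes, where 32.5% of all genes with 10 counts or more were highest in it. Hsph1 had 256, 174, 172 and 139 CPM. Of immediate early genes, Btg1, an inhibitor of proliferation, had 1200.2, 954, 994 and 1021 CPM, Zfp36, which marks mRNA for decay, 271 ± 26.6 CPM and Jund 179, 199.7, 169.9 and 116 CPM. Fos and Fosb, among the fastest genes to answer a stimulus, averaged 1.33 and 1.88 CPM. Most of the list was higher. Of its 25 genes, 17 averaged 10 CPM or more, and 22 had 1 CPM or more in all libraries.

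Glucocorticoid response genes varied more than the heat shock, immediate early, cell cycle and interferon lists, with a sum of 1166, 791, 917 and 1096 CPM and a median coefficient of variation of 25.5%, against 9.15% over all genes of 1 CPM or more. Tsc22d3, the glucocorticoid-induced leucine zipper, had 366, 216, 306 and 418 CPM and Ddit4, an inhibitor of mTORC1, 144, 104, 185 and 215 CPM. Tsc22d3 was high in NP 1 and NP 5, Ddit4 in NP 4 and NP 5, and Fkbp5 in NP 1 alone, so these genes did not share an order. Of the cell cycle, replication helicase genes such as Mcm3 (88.6 ± 5.25 CPM) and Mcm5 (71.2 ± 2.68 CPM) were even, while mitotic genes such as Ccnb1 and Bub1 averaged 3.27 and 2.77 CPM. Of type I interferon genes, Stat2 had 228 ± 26.4 CPM, while Isg15 averaged 7.36 CPM and Rsad2, an antiviral enzyme, had 5.11, 20.9, 5.49 and 1.73 CPM. Rsad2 was highest in NP 3 and lowest in NP 5. Of the 20 listed interferon genes, 10 were highest in NP 3, 7 in NP 4 and 3 in NP 1, and 13 were lowest in NP 5. Of all genes with 10 counts or more, 23.6% were highest in NP 3 and 31.5% lowest in NP 5. The red cell gene Alas2 was also highest in NP 3 and lowest in NP 5. The part of red cells in the value of Rsad2 was not tested.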

How the data were processed

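The authors deposited raw counts per gene in a table of the whole series, whose columns carry the sample titles. The 4 columns of the NP diet, titled GD with a number, were used. Per the submitters' processing notes, STAR, featureCounts of Subread, edgeR and limma were used, with their versions and the genome build not given in the sources used here. Each column sum equalled the assigned reads in the deposited counting summary, which also lists 13.95% to 15.5% of reads outside genes, 3.56% to 3.92% unmapped and 0.893% to 0.956% ambiguous.

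From the counts, CPM was computed on column totals, with no filter on genes unless stated. Of 39179 identifiers 37693 matched GENCODE M21 on GRCm38, which gave exon length, GC content, class and position and may not be the annotation the authors used. Lists and families held 743 symbols, of which 737 matched, 5 of them under another symbol. Iglc1, Iglc3, Lilrb4a, Ighd, Faslg and Ms4a4a were not analysed here, and a few genes of the lists are not reported here. The list members, families and measures were chosen with earlier results of these data known.

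Only NP libraries were used, so no diets were compared and no test between groups was run; Dixon's ratio was applied to single libraries. Dispersion came from edgeR 4.0.16 (R 4.3.3, limma 3.58.1) with TMM scaling and its expression filter at a minimum count of 10, and from DESeq2 1.42.0 as an alternative. Other steps used Python 3.11.15 with pandas 2.3.3, numpy 2.4.6 and scipy 1.17.1, and the dispersion and the ranking by variation were tested on simulated data. Alternatives were other scalings and filters, leaving out immunoglobulin or mitochondrial genes, other lengths, and leaving out each library. Wilson intervals at 95% and the floor of 3 counts, 0.0702 to 0.0946 CPM by library, cover counting error only.

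Genes were named by a rule: the 25 with the highest mean CPM, up to 8 members of each list by mean CPM and its defining markers, the first and second member of each family and its members under 1 CPM, and the 20 most and 10 least variable of 10 CPM or more. The ranking by variation skipped pseudogenes, variable segments of antibodies and genes that bear only a clone, model or miRNA number. Named outside the rule, after their values were seen, were the variable segments, Rpl4, Cd81, Cd72, Pirb, H2-Ea-ps, H2-DMb1, H2-DMa, H2-Oa, H2-Eb2, Blnk, Cd9, Dntt, Igll1, Fcgr4, Fcgr1, Irf3, Eif4a1, Eno1, mt-Co2, mt-Atp6, Hspa1b, Fos, Fosb, Ccnb1, Bub1, Isg15, Rsad2, the clone-numbered RNAs and mmu-mir-6236.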

Additional observations from a re-analysis of the deposited data

Results flagged for a closer look

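Among 371 summed lists, classes and single genes given in the text, 48 (12.9%) had a library whose distance to its nearest neighbour took up more of the whole range than the 95% critical value of Dixon's ratio. Chance gives this in about 1 in 20 sets of 4 values, and genes of a list move together, so these are not separate observations. The most variable genes, the variable segments and the numbered RNAs were also named because their libraries differed. The share of 12.9% can therefore not be set against the rate that chance gives. NP 1 was the library that stood apart in 24 of them, NP 3 in 8, NP 4 in 2 and NP 5 in 14. The ratio sets a gap against the range, so it can be large where libraries differ by a few percent, as for Ets1, Stim1 and the list of B cell transcription factors. Values are in CPM, those of lists are sums, and those of classes are percentages of all counts.

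In NP 1 the following were apart from and above the other 3 libraries. Tmsb4x stood at 3319.8, against 2504 to 2643, and Ighg3 stood at 262, against 45.4 to 68.1. Ighv2-7 stood at 37.8, against 2.97 to 6.69, and Igkv8-16 stood at 71.0, against 13.97 to 20.7. Cd24a stood at 503, against 433 to 442, and Bcl11b stood at 1.99, against 0.444 to 0.562. Foxo1 stood at 303, against 269 to 274, and Irf4 stood at 253, against 224 to 229. Cd3e stood at 3.34, against 0.491 to 0.587, and Cd3d stood at 2.49, against 0.418 to 0.638. Cd3g stood at 3.44, against 0.530 to 0.919, and Gzma stood at 2.11, against 0.128 to 0.335. S100a9 stood at 24.3, against 2.79 to 4.60, and S100a8 stood at 14.7, against 1.17 to 2.34. Spic stood at 29.1, against 24.6 to 24.9, and Mcpt8 stood at 0.126, against 0 in each other library. Prss34 stood at 0.568, against 0 in each other library, and the neutrophil list stood at 84.7, against 14.4 to 23.2. The T cell list without Cd2 and Lck stood at 107, against 41.7 to 49.7.

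In NP 1 the following were apart from and below the other 3 libraries. Cd22 stood at 2111, against 2612 to 2659.7, and Cd72 stood at 469.9, against 549 to 559. Dok3 stood at 429.6, against 534 to 541.

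In NP 3 the following were apart from and above the other 3 libraries. Ighv1-85 stood at 37.4, against 8.75 to 11.6, and Hba-a1 stood at 524, against 26.5 to 108. Alas2 stood at 53.2, against 1.57 to 10.1, and Slc4a1 stood at 135, against 4.79 to 22.6. Tmcc2 stood at 89.3, against 3.86 to 17.6, and Sptb stood at 29.1, against 1.52 to 6.18. Ank1 stood at 23.6, against 4.44 to 7.16.

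In NP 4 the following were apart from and below the other 3 libraries. Fas stood at 4.57, against 5.11 to 5.15, and the list of heavy chain constant genes stood at 10473, against 12136 to 12459.

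In NP 5 the following were apart from and above the other 3 libraries. Eef1a1 stood at 7763, against 6712 to 6886, and H2-DMa stood at 368, against 302 to 307. Lars2 stood at 1289.6, against 112 to 187, and mmu-mir-6236 stood at 200.2, against 16.5 to 28.4. Gm24187 stood at 47.9, against 3.94 to 5.41, and Gm24270 stood at 57.8, against 7.22 to 13.8. Gm15564 stood at 38.9, against 1.99 to 7.32, and the pseudogene share stood at 3.47%, against 3.26% to 3.28%.

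In NP 5 the following were apart from and below the other 3 libraries. Ets1 stood at 1198, against 1244 to 1252, and Cd9 stood at 46.2, against 73.8 to 75.2. Stim1 stood at 65.001, against 68.7 to 69.1, and Itga2b stood at 27.1, against 66.6 to 74.7. The list of B cell transcription factors stood at 7567, against 7844 to 7873.

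Ebf3 at 0.0631 CPM in NP 1, Ebf4 at 0.0511 CPM in NP 3, Igll1 at 0.0702 CPM in NP 5 and Cpa3 at 0.0315 CPM in NP 1 had no count in the other 3 libraries. These values rest on 3 counts or fewer, at or under the floor, and show no measurable difference. Any count beside 3 values of 0 passes the ratio by construction.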

How the results depend on the processing

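Under TMM or RLE scaling, with mitochondrial genes left out, and with other rules for detection, every summed list moved by less than the spread between libraries, and counts of genes stayed within 1.5 times. Leaving out immunoglobulin genes changed the denominator and took members out. The share of the 100 most abundant genes was then 17.2%, and the summed CPM of the receptor list 15213, of transcription factors 7973, of costimulation 1075, of the dendritic cell list 613 and of the plasma cell list 1846. The biological coefficient of variation was 11.6% over genes of a mean of 10 CPM or more and 10.8% as the square root of DESeq2's median dispersion, and it ran over 13.3% to 16.7% when each library in turn was left out, lowest without NP 1. The number of genes with a 2-fold range was 161 at a mean of 10 CPM or more and 3857 among all genes with a count in every library, where counting noise weighs more. It ran over 507 to 814 when each library in turn was left out, which also lowers a range by construction.

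An alternative chosen after seeing the data left out genes far above their list's defining markers, which took the sum to 60.3 CPM for the T cell list without Cd2 and Lck, 118 for the dendritic cell list without Ly6d, Tcf4 and Sirpa, 339.7 for the platelet list without Itgb3 and 8.04 for the stroma and endothelium list without Pecam1. The share of the leading family member moved by more than its SD in 50 of 65 families with CPM used without length and in 38 with the longest transcript as length, and in none when a library was left out. The cause of these moves beyond their construction was not tested. No paired analysis was possible because a single group was described and no test between groups was run. With 4 libraries, no cause can be given for the place of a single library, and at this depth levels under the floor of 3 counts were not measurable.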

Other observations

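Genes outside the protein-coding set took a small part of the counts. Annotated pseudogenes held 3.28, 3.26, 3.28 and 3.47% of the counts, and 664 of them had 1 CPM or more in all 4 libraries. Long intergenic and antisense RNAs held 0.753, 0.743, 0.809 and 0.779%, with 251 at 1 CPM or more in all. Reads of a pseudogene and of its parent gene can be placed on either where they differ little, so single pseudogenes are not listed.

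Genes of pancreas and other tissues were near 0. Ins1, Ins2 and Amy2a1 had no count in any library, and Cela1, an elastase gene, had 2.68, 1.81, 1.39 and 1.29 CPM. The 219 zinc finger genes with names beginning in Zfp and 10 CPM or more, a set chosen after their values were seen, summed to 11478, 11079.9, 11143 and 11181 CPM, with a median coefficient of variation of 9.08%.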
